A study of Homo sapiens with 24 samples.

Results

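The chaperone genes are the protein-coding genes whose RefSeq symbols begin with HSPA, HSPB, HSPH, HSP90 or DNAJ, together with HSPD1, HSPE1, TCP1 and the CCT genes. The rule found 83 genes, and 55 of them carried at least 1 called peak, out of 9321 genes with a peak in the whole data set. These 55 genes held 325 of the 61237 peaks, on 99 transcripts. The other 28 genes had no peak in any list. The 2 genes HSPBP1 and HSPBAP1 enter by their symbols but encode proteins that bind heat shock proteins.

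N1-methyladenosine (m1A), an adenosine methylated on its base, was located in RNA by antibody immunoprecipitation (IP) and sequencing in HEK293T, a human embryonic kidney cell line grown with 10% FBS. ALKBH3, an enzyme that removes m1A from RNA, was knocked out in the KO cells, which were set against wild-type (WT) cells. How many clones make up the KO line was not given in the sources used here. Wild-type cells were also given 50 µM H2O2 for 30 min (H2O2) or kept without serum for 16 h (Starve), and each was set against untreated wild-type cells (UT). KO and WT had input, IP and IP plus demethylase libraries, and the other groups input and IP libraries. That made 24 libraries in 12 groups of 2. No label says that the replicates were separate cultures, so their spread may be technical. The comparisons ask which sites depend on ALKBH3 and which appear under stress.

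Molecular chaperones bind unfolded proteins and help them reach or regain their shape. HSP70 proteins bind short exposed stretches in a cycle driven by ATP, and J-domain proteins (the DNAJ genes) deliver clients to HSP70 and speed up its ATP use. HSP110 proteins exchange the nucleotide of HSP70, HSP90 proteins finish the folding of kinases and receptors, and small heat shock proteins hold unfolded clients. The cytosolic chaperonin, built from TCP1 and the CCT subunits, folds actin and tubulin inside a closed chamber. HSPD1 and HSPE1 form the corresponding chamber and its lid in mitochondria. m1A cannot form the usual Watson-Crick pair, and m1A in messenger RNA is known to occur mainly near the start of transcripts.

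Each of the 5 conditions had 2 peak lists, called separately for each replicate. A value below is the authors' fold enrichment at a peak, relative to the background their caller estimated nearby, and for a gene the highest among its peaks in that list. A gene was called for a condition alone when a region on one of its transcripts lay in both lists of that condition and in neither list of the other. Such a call has no p-value, because 2 lists against 2 cannot give an exact permutation p below 0.333. It is read against the share of all genes with a region that met the same rule. A region without a peak was not called, which does not show that m1A was absent. Positions are nucleotides (nt) from the start of the RefSeq transcript named. Fewer transcripts and less m1A per transcript cannot be told apart in these lists.

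The lists held 2175 to 11362 peaks, and the WT and KO lists were the shortest. No list held a peak on ALKBH3 (0 in all 10), so the knockout is not checked by them. The first WT list held 1 chaperone peak, against 12 in the second, so results that rest on WT are also given without it. Of 5 kidney-line marker genes 5 had a peak, and of 8 markers of other cells 1 did, COL1A1 in the UT lists. Library totals are not in the lists, so the depth of each is not known.

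For 4 of the genes called in KO alone the KO region began within nt 21 to 50 of the transcript. These nt are shown, counted from the start of the gene in the RefSeq promoter table. Capitals mark the bases from the first nt of the KO region onward, which for DNAJB6 is nt 26 of NM_005494 (nt 25 on NM_058246). This holds only if nt 1 of the listed transcript is the start in the table, which the files do not show. The genomic positions are those of GRCh38.p14, whereas the submitters name hg19.
DNAJB6, chr7:157337024-157337053, plus strand: gagagAAAGGAAAGCGCGAGGAGCCGCCGC
DNAJC8, chr1:28232980-28233009, minus strand: gggccggggaaATGGCGGCTTCAGGAGAGA
HSPA1B, chr6:31827758-31827787, plus strand: tgctgcgaGGGTCCGCTTCGTCTTTCGAGA
HSPD1, chr2:197500225-197500254, minus strand: tcgccccaagggccctgcgcAGGACGCTGA
The 4 stretches hold 10 adenosines in DNAJB6, 7 in DNAJC8, 3 in HSPA1B and 5 in HSPD1. Their GC content was 66.7% in DNAJB6 and DNAJC8, 60% in HSPA1B and 73.3% in HSPD1. Over the same 30 nt the median GC content was 63.3% for 75 chaperone genes and 66.7% for 15843 protein-coding genes, and the median number of adenosines was 5 in both sets. The stretches show only the beginning of each KO region, and the KO summits lay beyond them. Summits stood at nt 102 and 121 in DNAJB6 (NM_005494), 119 and 92 in DNAJC8, 115 and 115 in HSPA1B and 125 and 122 in HSPD1. These are letters of the reference only, and the lists do not say which adenosine is methylated, in the stretch or beyond it.

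Chaperone peaks were scattered over the lists and differed by class. No chaperone gene had a peak in more than 8 lists, and HSPH1 and TCP1 were the ones with 8. In 3 lists or fewer were 32 of the 55 genes, and 17 had a peak in a single list. A peak in both lists of at least 1 condition was found for 26 genes. The number of lists per gene was not counted over all genes. By condition, 11 chaperone genes had a peak in both KO lists, 1 in both WT lists, 7 in both H2O2 lists, 14 in both Starve lists and 10 in both UT lists. Over all genes these numbers were 1462, 730, 1033, 2244 and 1885. In the same order, 22, 9, 31, 40 and 29 chaperone genes had a peak in either list. For all genes it was 2679, 2572, 4481, 6438 and 6044, so the counts are to be read beside these.

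**Figure D1:**
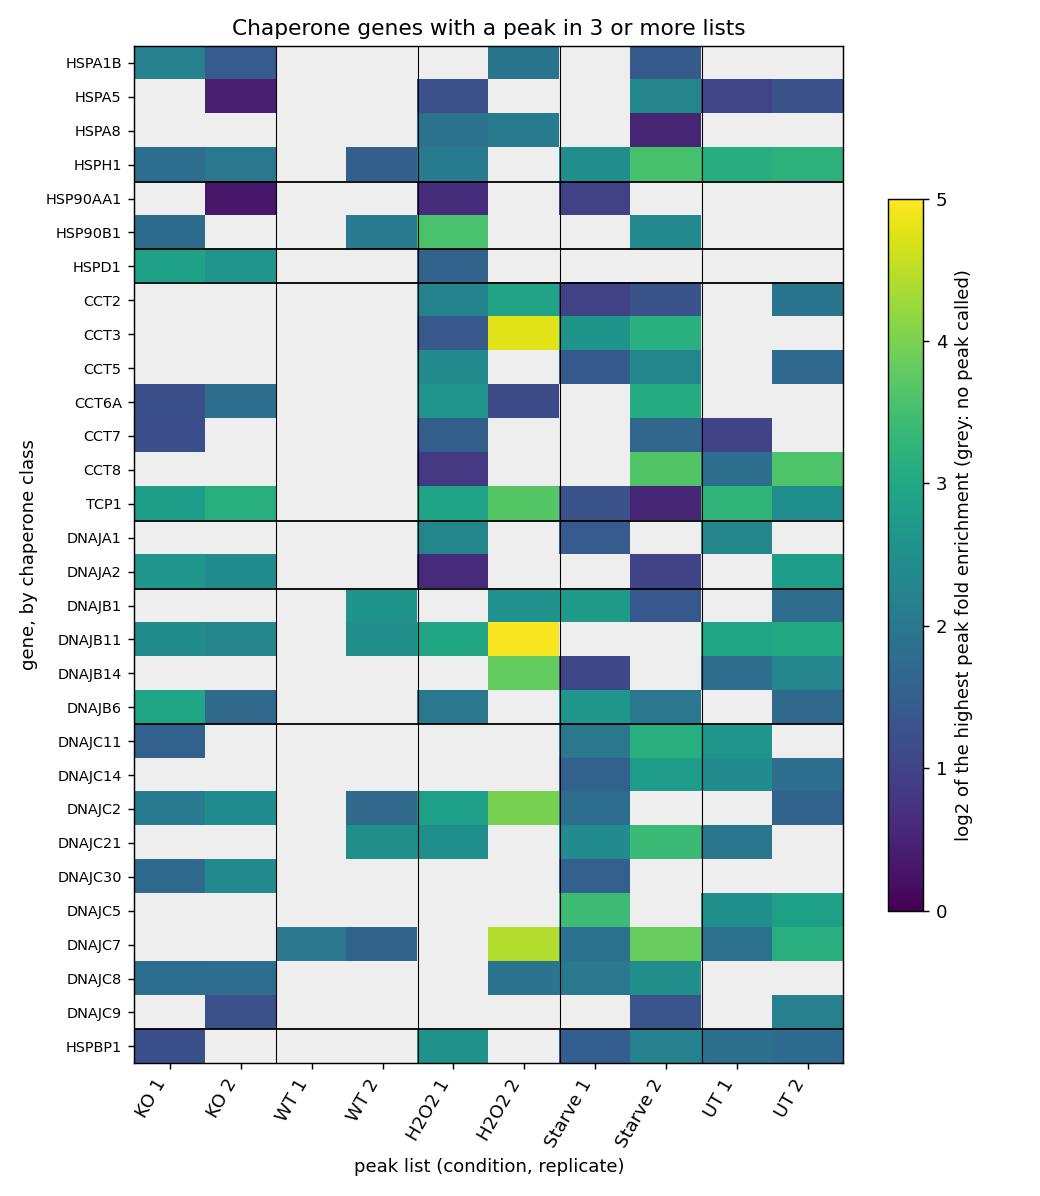
Highest fold enrichment (log2 colour scale) of each chaperone gene with a peak in 3 or more lists, with genes as rows by class and the 10 lists as columns; grey means that no peak was called. The first WT column is grey except for DNAJC7, while TCP1 and HSPH1 are coloured in 8 columns each.

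Of the 9 cytosolic chaperonin genes 8 had a peak, and CCT6B, a testis form, had none. TCP1, the founding subunit, reached 6.99 and 8.77 in KO lists and had no peak in WT lists. In the other conditions TCP1 reached 7.51 and 12.9 in H2O2, 2.42 and 1.44 in Starve and 9.60 and 5.60 in UT. The Starve values were thus the lowest, and the peak of 1.44 lay elsewhere on the transcript, at nt 806 to 905. CCT3, another subunit, had no KO, WT or UT peak, and reached 2.63 and 27.3 in H2O2 and 6.03 and 9.07 in Starve. Its 27.3 in the second H2O2 list came from nt 33 to 192, where the first H2O2 list had no peak. The Starve values of CCT3 also came from different places, nt 126 to 279 of NR_036564 and nt 402 to 593 of NR_036565. CCT8 had no KO or WT peak and reached 1.81 in the first H2O2 list, 12.5 in the second Starve list and 3.49 and 12.4 in UT. Its UT values came from different places, nt 494 to 667 and nt 203 to 349 of NM_001282909. CCT2 had no KO or WT peak either, with 4.74 and 7.60 in H2O2, 1.97 and 2.43 in Starve, and 3.81 in the second UT list. The H2O2 values of CCT2 came from different places, nt 1801 to 1913 and nt 549 to 648 of NM_001198842. So did its Starve values, from nt 947 to 1046 and nt 310 to 490 of NM_006431. CCT4 had a peak in the second Starve list alone, at 3.26. In the mitochondrial chaperonin, HSPD1 reached 7.25 and 6.13 in KO and 3.03 in the first H2O2 list, and had no peak in WT, Starve or UT. HSPE1 had none.

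HSP70 and HSP110 genes had peaks on 10 of 15. HSPH1, an HSP110 gene, reached 3.51 and 3.99 in KO, against 2.84 in the second WT list and none in the first. In stressed cells HSPH1 reached 4.24 in the first H2O2 list and 5.43 and 11.6 in Starve, against 8.70 and 9.28 in UT. Those values came from several places on the transcript, since the Starve peak of 11.6 began at nt 3432 of NM_006644 and the UT peak of 9.28 lay at nt 62 to 369. HSPA8, the constitutive cytosolic HSP70, reached 3.67 and 4.17 in H2O2 and 1.42 in the second Starve list, at nt 774 to 1572 on its transcripts. The H2O2 peaks of HSPA8 lay at different places, nt 1264 to 1363 and nt 1468 to 1572. HSPA5, the endoplasmic reticulum HSP70, stayed below 5 in each of its 5 lists. HSPA4L, an HSP110 relative, had peaks in Starve alone, with 7.07 and 7.73, but at different places on the transcript. HSPA1B, a stress-inducible HSP70, had peaks of 4.58 and 2.70 in KO, 3.87 in the second H2O2 list and 2.66 in the second Starve list. HSPA1A had none, but it is nearly identical to HSPA1B, so reads of the 2 genes cannot be told apart and the assignment is uncertain.

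The 3 HSP90 genes all had a peak, but in few lists, and 2 of the 7 small heat shock protein genes had one. HSP90AA1, the inducible cytosolic form, reached 1.25 in the second KO list, 1.57 in the first H2O2 list and 1.99 in the first Starve list. HSP90AB1, the constitutive form, had a peak in the second Starve list alone, at 2.60. HSP90B1, the form of the endoplasmic reticulum, was higher, with 3.41 in the first KO list, 4.17 in the second WT list, 11.9 in the first H2O2 list and 5.15 in the second Starve list. No HSP90 gene had a peak in both lists of any condition. HSPB1 had 1.70 in the second KO list and 2.88 in the first H2O2 list, and HSPB8 had 9.94 in the second Starve list.

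Of 45 DNAJ genes 30 had a peak. DNAJB11, a partner of HSPA5, reached 5.31 and 4.97 in KO and 5.53 in the second WT list. DNAJB11 also reached 8.01 and 31.1 in H2O2, against 7.69 and 8.33 in UT, and had no Starve peak. The 31.1 came from nt 845 to 951, away from the start where the other H2O2 peak lay. DNAJC2, which binds ribosomes, reached 4.25 and 5.38 in KO and 3.31 in the second WT list. In H2O2 DNAJC2 reached 7.07 and 15.8, against 3.02 in the second UT list alone, and it had 3.48 in the first Starve list. The H2O2 values came from different places, the 7.07 from nt 1154 to 1275 and the 15.8 from nt 185 to 307. Only the second of these overlapped the UT peak, at nt 185 to 284. DNAJC7, a co-chaperone of HSP70 and HSP90, was the one chaperone gene with a peak in both WT lists, at 3.96 and 3.04. Its WT peaks lay on different transcripts and at different places, so it had no shared WT region. DNAJC7 reached 21.4 in the second H2O2 list and 3.68 and 14.4 in Starve, against 3.72 and 8.81 in UT. Its Starve values came from different places, nt 1547 to 1646 and nt 261 to 392 of NM_003315. On that transcript the H2O2 value came from nt 1554 to 1653, away from the UT values at nt 317 to 416 and nt 317 to 447. DNAJB1, a cytosolic partner of HSP70, reached 6.01 in the second WT list, 5.76 in the second H2O2 list, 6.59 and 2.59 in Starve and 3.45 in the second UT list, and had no KO peak. The H2O2 peak of DNAJB1 lay at nt 1893 to 1992, and its other peaks within nt 21 to 181. DNAJC21, a factor in ribosome assembly, had no KO peak, with 5.53 in the second WT list, 5.62 in the first H2O2 list, 5.29 and 10.6 in Starve and 3.88 in the first UT list. DNAJC5, DNAJC14, DNAJC11 and DNAJC9 had peaks in 3 or 4 lists but no region shared by both lists of a condition.

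Between KO and WT, 8 of the 27 chaperone genes with a region (29.6%) had one in KO alone, and 0 had one in WT alone. Of all 3904 genes with a region, 18.9% met the rule for KO and 5.23% that for WT. A region in all 4 lists was found for 0 chaperone genes and for 8.38% of all genes. The 8 genes were TCP1, CCT6A, HSPD1, HSPA1B, DNAJB6, DNAJA2, DNAJC8 and DNAJC30, so each main class but HSP90, the small heat shock proteins and the binding proteins was present. Without the first WT list, which held a single chaperone peak, the KO-only count was also 8, against 22.6% of all genes. The WT-only count was then 5, against 30.4% of all genes, since the second WT list alone then sufficed. The KO-only count was 11 of 23 without the second WT list (33.7% of all genes), 13 of 22 without the first KO list (34.9%) and 13 of 22 without the second (33.0%). Among peaks with a fold of 4 or more it was 4 of 11, against 17.6% of all genes.

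The KO regions were short and, for 7 of the 8 genes, began within 200 nt of the transcript start. TCP1 (NM_001008897, nt 114 to 251) had the highest lower value of the pair, with 6.99 and 8.77. Next came HSPD1 (NM_002156, nt 41 to 239) with 7.25 and 6.13 and DNAJA2 (NM_005880, nt 58 to 197) with 6.08 and 5.38. DNAJA2 is a cytosolic partner of HSP70. DNAJB6, which keeps aggregation-prone proteins soluble, had 7.69 and 3.27 on NM_058246 at nt 25 to 140. DNAJC8, a splicing-associated J protein, had 3.52 and 3.47 on NM_014280 at nt 32 to 155. HSPA1B (NM_005346, nt 29 to 170) had 4.58 and 2.70, and CCT6A (NM_001009186, nt 116 to 305) had 2.33 and 3.51. DNAJC30, a mitochondrial J protein, differed in position, with 3.25 and 5.22 at nt 363 to 522 of NM_032317. The depth behind these peaks was uneven, with pileups at the summit (reads covering that base) of 499 and 617 in TCP1 and 117 and 187 in DNAJC30. In the WT lists none of the 8 genes had a peak elsewhere on its transcripts.

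The same places were often called in other wild-type cells. Of the 8 genes 7 (87.5%) had a KO region that overlapped a peak in an H2O2, Starve or UT list, all from wild-type cells, against 518 of all 739 genes called in KO alone (70.1%). Counted over transcripts, 8 of the 11 KO regions did, and the other 3 were CCT6A on NM_001009186 and both DNAJB6 regions. In UT lists alone it was 1 of 8 genes, TCP1, against 224 of 739 (30.3%). DNAJC8 had both Starve lists at 4.03 and 5.52, and DNAJB6 had no overlap on either transcript. TCP1 had one in both H2O2 lists, 1 Starve list and both UT lists. DNAJA2 had 1.54 in the first H2O2 list and 2.04 in the second Starve list, and HSPD1, HSPA1B and DNAJC30 had a single overlapping peak of 2.93 to 3.87. CCT6A had one of 2.23, in the second H2O2 list, on its other transcript NM_001762, where the KO region lay at nt 124 to 310. HSPH1, DNAJB11 and DNAJC2 had a peak near the start in both KO lists and in the second WT list but not in the first.

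**Figure D2:**
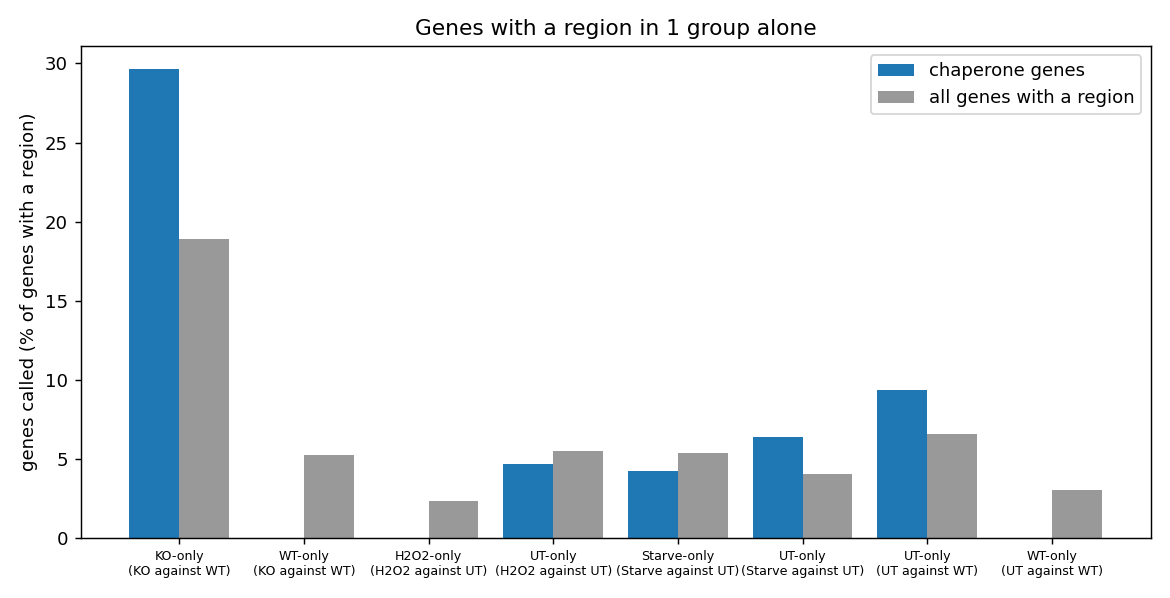
Percent of genes with a region that were called in 1 group alone, for chaperone genes and for all genes, in the 4 comparisons; bars start at 0 and carry no error bars. The KO-only bars stand at 29.6% for chaperone genes and 18.9% for all genes, and the other chaperone bars rest on 0 to 3 genes each.

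Under H2O2, 0 of the 43 chaperone genes with a region were called in H2O2 alone, and 2 (4.65%) in UT alone. Over all 7519 genes the shares were 2.33% in H2O2 alone and 5.49% in UT alone. The UT genes were HSPH1, with 2.22 and 8.81 at nt 62 to 369 of NM_001286503, and DNAJC7, with 3.72 and 8.81 at nt 317 to 447 of NM_003315. The 2 UT peaks of HSPH1 overlapped, but the first lay at nt 268 to 367 alone, and their summits stood at nt 363 and 160. On NM_006644 the first UT list had a peak at nt 486 to 585 and none at nt 62 to 369, so the call rests on 1 transcript. HSPH1 and DNAJC7 each also had a peak elsewhere in 1 H2O2 list. Without the first H2O2 list the UT-only count was 5 of 35 (9.19% of all genes), and without 1 UT list 15 of 38 (54.8%) or 11 of 38 (48.8%). The H2O2-only count was 9 of 35 without the first H2O2 list (21.7%) and 18 of 40 without the second (37.4%). By gene instead of region it was 3 of 43, against 2.49% of all genes. TCP1 was the gene with a region in all 4 lists, 1 of 43 (2.33%) against 2.66% of all genes. The 2 H2O2 lists differed in length and height: chaperone peaks had a median fold of 3.99 in the first list, where all peaks had 4.79, and 13.9 in the second, where all peaks had 8.26. These medians count the transcripts of a gene as separate peaks, and none was taken with 1 value per gene. In the second list the 24 chaperone peaks came from 13 genes, with folds from 1.91 to 31.1. The 13.9 is the value of DNAJB14, which was listed on 3 transcripts. CCT3, DNAJB11, DNAJC7, DNAJC2 and DNAJB14 had folds of 13.9 to 31.1 in the second list, at places where the first list had no peak.

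Under serum starvation, 2 of the 47 chaperone genes with a region (4.26%) were called in Starve alone, against 5.34% of all 8466 genes. With 1 Starve list left out, so that the other sufficed, the count was 24 of 41 without the first (42.8% of all genes) and 22 of 38 without the second (51.0%). The genes called with both lists were DNAJC8, with 4.03 and 5.52 at nt 37 to 149, and CCT3, with 2.22 and 3.79 at nt 125 to 225 of NM_001008800. DNAJC8 had no UT peak, and its Starve region overlaps the place called in KO. In UT alone 3 of 47 were called (6.38%), against 4.06% of all genes. Without 1 UT list that count was 17 of 45 (42.4%) or 14 of 43 (36.6%), and without the first Starve list 5 of 41 (7.39%). The 3 genes were DNAJB11, with 7.69 and 8.33 at nt 81 to 276, HSPA5, with 2.07 and 2.42 at nt 1556 to 1682 of NM_005347, and HSPBP1, with 3.61 and 3.36 at nt 631 to 740 of NM_001297600. HSPBP1 also had peaks elsewhere in both Starve lists. HSPA5 had peaks elsewhere in the second Starve list, of 4.92 at nt 1029 to 1139 and 2.90 at nt 430 to 529. A region in all 4 lists was found for 0 chaperone genes and 3.19% of all genes.

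UT and WT are both untreated wild-type cells, so their difference shows how far lists of like cells differ. Of 32 chaperone genes with a region 3 (9.38%) were called in UT alone, TCP1, HSPA5 and HSPBP1, against 6.58% of all 6671 genes. In WT alone 0 were called, against 3% of all genes. With 1 list left out, the UT-only count was 18 of 25 or 15 of 23 for a single UT list (69.0% and 63.5% of all genes) and 6 of 29 without the second WT list (10.1%). The WT-only count was 3 of 32 without the first WT list (15.5%). A region in all 4 lists was found for 0 chaperone genes and 3.96% of all genes. TCP1 was therefore called against WT both in KO cells and in UT cells, with 9.60 and 5.60 in UT. Its missing WT peak is shared by these comparisons, which use the same WT lists.

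Other genes of the folding pathway were taken from a list of heat shock factors, co-chaperones, prefoldin and folding factors. Of these 54 genes 47 had a peak, and 18 had one in 6 lists or more. Of the 83 chaperone genes 55 had a peak, and 7 had one in 6 lists or more. The 54 genes were picked by name and the 83 by a symbol rule. Lists per gene were not counted over all genes, so neither count has a share to be read against. CANX, a lectin chaperone of the endoplasmic reticulum, had a peak in all 10 lists, at 3.30 and 2.60 in KO and 2.52 and 2.34 in WT. BTF3, ST13, STUB1 and FKBP4 had one in 9 lists. BTF3, part of the nascent-chain complex, reached 4.33 and 4.44 in KO, against 16.9 and 4.39 in WT. FKBP5, a co-chaperone of HSP90, had 11.05 and 8.66 in KO and 10.98 in the second WT list. STIP1, which bridges HSP70 and HSP90, had 3.19 and 2.74 in KO and 4.14 and 5.24 in WT. Between KO and WT, 11 of the 29 pathway genes with a region had a KO-only region and 1 a WT-only region, where all genes had 18.9% and 5.23%. Those with a KO-only region and with a peak in 6 lists or more were FKBP8, PPP5C, CANX, PDIA4 and SGTA. PPP5C, a phosphatase of the HSP90 cycle, had 3.80 and 3.48 in KO. SGTA, which hands on membrane proteins, had 3.54 and 4.502 in KO. Neither PPP5C nor SGTA had a WT peak. In H2O2 alone 0 of 39 were called and in UT alone 4, where all genes had 2.33% and 5.49%. In Starve alone 3 of 44 were called and in UT alone 4, where all genes had 5.34% and 4.06%.

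Regions that recurred across lists lay near the start of the transcript. The 325 peaks merged into 205 regions, of which 145 (70.7%) were in a single list. Most regions over all genes were in 1 list too, with 27665 in 1 list, 7058 in 2 or 3 and 2958 in 4 or more. Of those 145 regions 14.5% had their summit within 300 nt of the start (over all genes 16.6%), and of 46 regions in 2 or 3 lists 47.8% did (over all genes 42.5%). Of the 14 regions in 4 or more lists 13 did (92.9%, over all genes 80.1%). Those 14 regions belong to 10 genes, because transcripts of a gene repeat a signal, and the widest recurrence was TCP1 at nt 71 to 251 in 7 lists. HSPH1 at nt 62 to 374 and DNAJB11 at nt 79 to 276 were in 6 lists, and DNAJC2 at nt 164 to 307 and DNAJC21 at nt 72 to 314 in 5.

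Position also differed between lists and, with repeated transcripts counted, between classes. Over all lists 43.4% of chaperone summits lay within 300 nt (Wilson 95% interval 38.1 to 48.8%, counting error only). Within 100 nt the share was 6.15%. Transcripts of a gene repeat a signal, and the interval and the shares in this paragraph count such copies as separate peaks. With 1 transcript per gene, 47.2% of 193 summits lay within 300 nt. In KO lists the shares were 76.0% and 90.9%, and over all genes 72.9% and 71.8%. In the second WT list 83.3% of 12 chaperone summits lay there, and over all genes 74.2%. In H2O2, Starve and UT lists the chaperone shares were 25.9 to 50.0%, and those over all genes 29.2 to 45.3%. By class, the share near the start was 65.2% of 46 DNAJB peaks, 60% of 5 mitochondrial chaperonin peaks and 53.8% of 80 cytosolic chaperonin peaks. Lower shares were found for DNAJC (42.9% of 84), DNAJA (38.9% of 18), small heat shock proteins (33.3% of 3), HSP90 (31.3% of 16) and HSP70 with HSP110 (26.8% of 56). The binding protein HSPBP1 had 5.88% of 17. The conditions contribute unequally to these shares, since most peaks came from H2O2, Starve and UT lists. The mitochondrial chaperonin and binding protein shares each come from 1 gene, and HSPH1 enters its class on 4 transcripts. No share by class was taken with 1 transcript per gene.

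**Figure D3:**
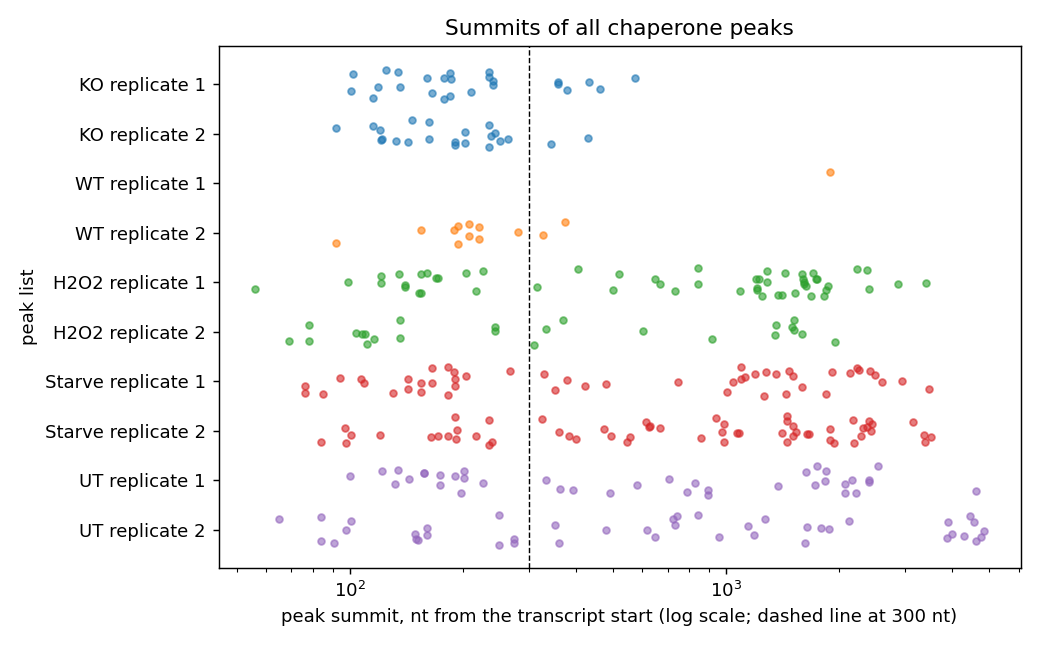
Distance of every chaperone peak summit from the transcript start in nt (log axis), 1 point a peak, by list; the dashed line stands at 300 nt. KO points lie mostly left of the line, and H2O2, Starve and UT points on both sides.

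Demethylase-treated RNA was given in windows of 10 nt, with coverage scaled within each region. KO files held 592 and 578 windows on 11 chaperone genes (16 transcripts), and WT files held 0. The treated profile was the same, apart from a constant factor, in the 2 KO files for 99.7% of transcripts (771 of 773, tolerance 0.01 in the SD of the log2 ratio), against 0 of 775 for IP profiles. It was therefore counted as 1 sample beside 2 IP samples. In the windows both KO files hold, limma called 0 of 28711, with 5094 at an unadjusted p under 0.05. That included 0 of 189 chaperone windows, with 49 at an unadjusted p under 0.05, and their smallest adjusted p was 0.251 (limma). With 1 treated sample, the error in this fit comes from the 2 IP samples.

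HSPD1 had the largest window differences in scaled coverage among the 5 chaperone genes with windows at the same positions in both KO files. At nt 181 to 190 the treated coverage was 6.46 and 6.88 (the same sample as scaled in each file), against 2.76 and 3.22 in IP. At nt 71 to 80 it was 2.80 and 2.98 in treated RNA, against 6.31 and 6.54 in IP. The log2 difference, with 1 added to each value, was 0.94 in the first place and -0.93 in the second. These are values of 1 treated profile, with no error for treated RNA. The centre of coverage stood at nt 141.6 in treated RNA, against 122.0 and 121.9 in IP. In TCP1 (NM_030752) it stood at 183.1, against 175.5 and 176.4, and in CCT6A (NM_001009186) at 240.3, against 226.6 and 221.5. It lay nearer the start in DNAJC30, at 429.8 against 441.9 and 440.1, and in DNAJA2, where treated minus mean IP was -8.28 nt. DNAJC8 had 6.87 and 7.56 in treated RNA at nt 126 to 135, against 10.4 and 10.8 in IP, but 10.3 and 11.3 at nt 136 to 145, against 8.05 and 8.13. On the log2 scale DNAJC8 reached 1.30 at nt 16 to 25, above the highest value of HSPD1, 0.999. Coverage there was low, with 1.89 and 2.08 in treated RNA and 0 and 0.471 in IP. DNAJC2 differed between its transcripts, with a treated minus mean IP centre of -19.2 nt on NM_001129887 and 1.71 nt on NM_014377. Of the 16 chaperone regions, 6 (37.5%) had the treated centre downstream of both IP centres, against 43.3% of 2104 regions of all genes. The median shift was 0.0691 nt for chaperone regions and 0.370 nt for all regions.

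**Figure D4:**
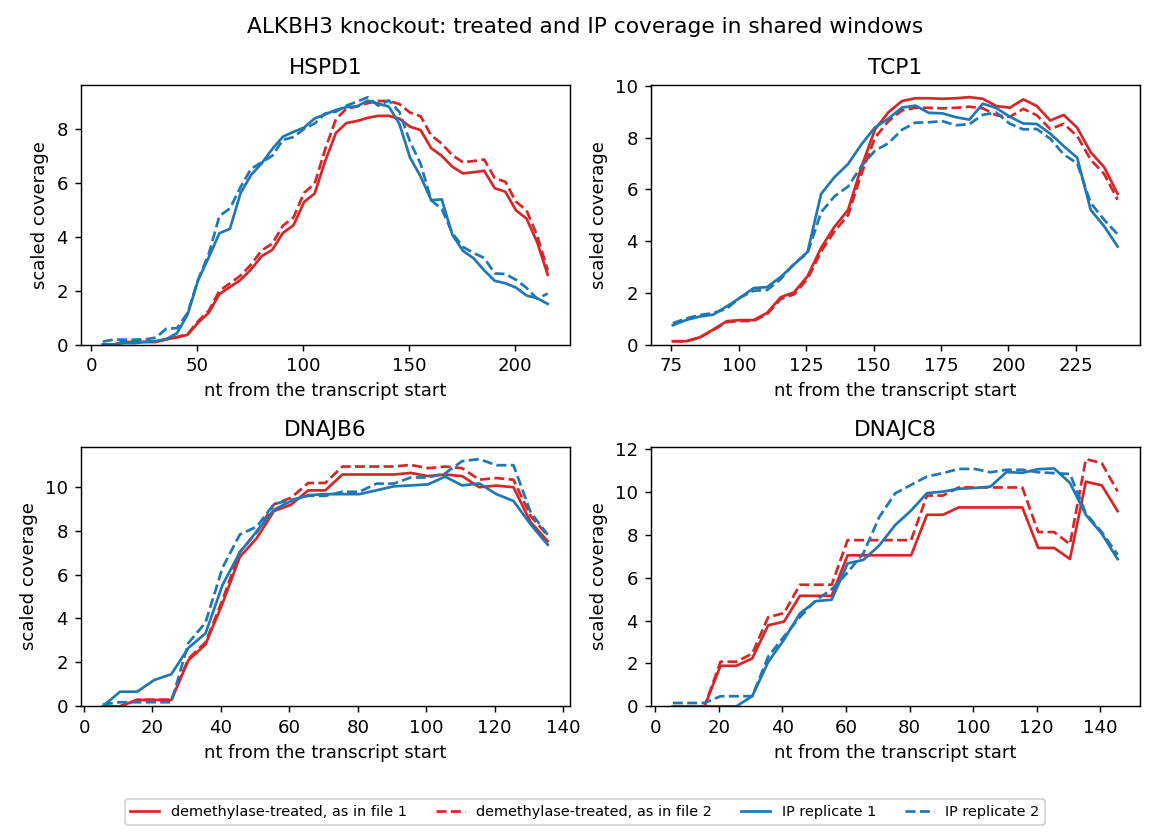
Scaled coverage along the transcript start (nt) in KO cells for 4 chaperone genes, with the treated profile as scaled in each file in red and the 2 IP replicates in blue. In HSPD1 the red lines are at 6.46 and 6.88 where the blue lines are at 2.76 and 3.22, while DNAJB6 lines run close together.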

How the data were processed

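From 2.5 mg of total RNA, 40 µg of polyadenylated RNA was enriched and then reverse transcribed by AMV enzyme in 0.2 mM dNTP, per the labels' protocols. Trim Galore, HISAT, MACS2 and hg19 are named, without versions, in the submitters' processing notes. Peaks were called per replicate with MACS2, per the file headers, on RefSeq transcripts. The deposited values are pileup (a coverage signal), fold enrichment (a ratio) and −log10 p and q. The 4 windowed files hold coverage signal scaled by the authors and their score, treated minus IP coverage. Which input served each list was not given in the sources used here. Descriptions of the UT libraries name the Starve lists, and peak names in the UT lists carry the letters WT. The list names were followed, and every UT comparison rests on them.

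Gene symbols came from a RefSeq table (GRCh38.p14, names only), which matched 17021 of 17315 transcripts (98.3%); 921 peaks had no symbol. Peaks overlapping by 1 nt or more on a transcript were merged. Windows shared by both files were fitted with limma 3.58.1 (R 4.3.3) on log2(coverage + 1), with Benjamini-Hochberg adjustment over all windows. The treated profile was counted once per genotype, a departure from the planned 2 against 2. Scripts used Python 3.11.15, numpy 2.4.6, pandas 2.3.3, scipy 1.17.1 and matplotlib 3.10.9, and were tested on simulated data. Members, lists and tests were chosen with earlier results of these data known. Genes were named if they had peaks in 8 or more lists or were called in 1 group alone, and otherwise by number of lists and then fold. Other members with values were chosen after these were seen. Alternatives are listed at the end.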

Additional observations from a re-analysis of the deposited data

How the results depend on the processing

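Of 83 alternative values 36 moved, for counts by more than 1.5 times, and 47 did not. These labels compare counts alone, and some counts passed from below to above the share over all genes or the other way. The shares over all genes, in brackets, moved too. With folds of 4 or more, KO-only genes numbered 4 of 11 (17.6%), UT-only genes 0 of 28 against H2O2 (2.71%) and 1 of 18 against WT (4.16%). With equal numbers of top peaks per list, UT-only was 0 of 33 against H2O2 (2.56%) and 1 of 16 against WT (2.002%), and Starve-only 1 of 42 (4.20%). KO-only was then 8 of 16 (17.6%), a count that did not move though fewer genes had a region, and WT-only 0 of 16 (8.48%). By gene instead of region, KO-only was 8 of 27 (16.3%), WT-only 1 of 27 (4.97%) and H2O2-only 3 of 43 (2.49%). UT-only by gene was 1 of 47 against Starve (4.08%) and 7 of 32 against WT (14.2%). Leaving out 1 list at a time lets a single list make a call. KO-only genes then numbered 8 to 13 (22.6 to 34.9%), WT-only 0 to 5 (7.35 to 30.4%), H2O2-only 0 to 18 (3.77 to 37.4%) and Starve-only 3 to 24 (7.74 to 51.0%). UT-only genes numbered 2 to 15 against H2O2 (7.05 to 54.8%), 4 to 17 against Starve (5.76 to 42.4%) and 3 to 18 against WT (7.17 to 69.0%), and WT-only against UT 0 to 3 (5.71 to 15.5%). A limit of 100 nt put 6.15% of summits near the start.

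Counting the treated columns as 2 samples gave 6692 called KO windows (49 on chaperones, 18 higher and 31 lower) and 4118 called WT windows. The treated over IP ratio differed between KO and WT in 538 of 2922 windows (18.4%; 332 higher, 206 lower). It was 0 to 354 when 1 replicate was left out and 0 with the replicate block (961 unadjusted). Chaperone windows were not tested there, since the WT files hold none, and the error holds no spread of treated RNA. The difference between replicates 1 and 2 in the log2 ratio was correlated between KO and WT, at 0.0613 over 2922 windows on 87 transcripts. The treated profile was the same in both files apart from a factor, so no spread of treated RNA enters this value. It covers KO and WT alone, and it cannot show whether the replicate numbers pair the samples. Leaving out a replicate in the treated against IP fits was not run, because no residual degrees of freedom remain.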
